A study of Mus musculus with 37 samples.

Results

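Retinoic acid, a signal made from vitamin A, is supplied, removed and read by a small set of genes, and 9 of them were followed here in the mouse tailbud. They were picked by symbol from the 35542 genes of the deposited count table, and all 9 were found: Aldh1a2 and Dhrs3 on the supply side, Cyp26a1 for clearance, the binding proteins Crabp1 and Crabp2, and the receptors Rara, Rarb, Rarg and Rxrg. RNA-seq was performed on tailbuds of 37 C57BL/6/Cast F1 embryos at E8-8.5 with 6 to 11 somites, to compare somite-matched controls with embryos that lacked maternal SMCHD1, which helps to silence genes on chromatin. The 21 control embryos (Smchd1 wt) were Smchd1 fl/+ and came from mothers without Cre. The 16 Smchd1 matΔ embryos were Smchd1 del/+: an MMTV-Cre transgene had removed the gene in the oocyte of the mother, so oocyte SMCHD1 was missing and the paternal copy was intact. All embryos therefore shared a Cast father with 2 unmodified alleles.

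Retinol is oxidised to retinal and then, by ALDH1A2 in the somites and anterior presomitic mesoderm, to retinoic acid, while DHRS3 turns retinal back into retinol. In the tailbud, CYP26A1 breaks retinoic acid down and keeps the progenitors of trunk and spinal cord out of its reach, next to FGF and WNT signals that retinoic acid opposes. CRABP1 and CRABP2 carry retinoic acid in the cell, and CRABP2 is known for passing it to the nuclear receptors, which bind DNA as pairs of a retinoic acid receptor (RARα, RARβ, RARγ) and a retinoid X receptor (RXRα, RXRβ, RXRγ). Cyp26a1 and Rarb are themselves textbook targets of these receptors.

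The numbers of control and maternally deleted embryos were 4 and 4 at 6 somites, 4 and 3 at 7, 3 and 2 at 8, 3 and 2 at 9, 4 and 3 at 10, and 3 and 2 at 11 somites. Depth, in units of 1e6 counts, was 3.06 to 80.6 per Smchd1 wt library and 0.916 to 30.2 per Smchd1 matΔ library. Smchd1 itself was measured at 149 ± 22.8 counts per 1e6 counts (CPM; SD, n = 21) in Smchd1 wt and at 88.7 ± 13.3 CPM (SD, n = 16) in Smchd1 matΔ embryos, a log2 difference of -0.74 (SE 0.075, adjusted p = 1.45e-07). All 8 tailbud markers listed (T, Nkx1-2, Cdx2, Wnt3a, Fgf8, Msgn1, Tbx6 and Dll1) were detected, with a summed level of 520 to 1418 CPM, and the lowest sum was that of Smchd1 wt replicate 1 at 10 somites. Smchd1 matΔ replicates 1 and 2 at 6 somites stood apart from the other 35 embryos in several of the genes described here, and held the largest shares of counts on a ribosomal RNA locus, 2.77% and 1.82%. The slopes, genotype differences and balance values that rest on these 2 libraries are given with and without them. The tailbud was cut below the last formed somite, and in such bulk tissue fewer cells of a type and less RNA per cell cannot be told apart.

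Receptor pairs bind direct repeats of a short motif. The promoter sequences of the members were searched for copies of AGGTCA, allowing G as the first and T as the third letter, in a repeat with 1, 2 or 5 bases between the copies (DR1, DR2 and DR5), on both strands, from 250 bases before to 50 after each RefSeq start (GRCm38.p6). Promoter sequences were at hand for 8 of the 9 members, 15 sequences in all, and Crabp2 had none. A DR5 was found in the promoters of Cyp26a1 and Rarb and of no other member, and these stretches are shown because those genes are the ones read as responses to retinoic acid. The repeat is in capitals, and each stretch is written on the strand of its gene.
Cyp26a1, chr19:37697770-37697797, plus strand: taaagaTGAACTTTGGGTGAACTaattt
Rarb, chr14:16575507-16575535, minus strand: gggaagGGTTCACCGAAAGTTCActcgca
The Cyp26a1 repeat lay 32 to 16 bases before the start and reads as a DR5 on the other strand. The Rarb repeat lay 53 to 37 bases before a start inside the locus, in sequence that other annotated Rarb transcripts include in their first exon. Among all 32851 promoter sequences, a DR5 occurred in 32 (0.0974%), a DR1 in 0.222% and a DR2 in 0.268%, and no member had a DR1 or DR2 by these letters. A match describes letters and not a bound site.

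To compare levels between genes, counts were divided by exon length (counts per kilobase of exon and per 1e6 counts, RPKM). Crabp1 had the highest level, 135 ± 18.3 RPKM (SD, n = 37), followed by Crabp2 at 93.5 ± 19.4, Cyp26a1 at 72.7 ± 28.3 and Rarg at 35 ± 3.71 RPKM. Then came Aldh1a2 at 7.75 ± 9.30, Rara at 5.20 ± 0.82, Rxrg at 1.98 ± 1.45, Dhrs3 at 1.75 ± 0.59 and Rarb at 0.724 ± 0.50 RPKM. The tailbud thus held far more transcript of the clearing enzyme than of the synthesising enzyme, and Rarg was the receptor with the highest level of the 4. Most steps of this order held in nearly every embryo: Crabp1 was above Crabp2 in 35 of 37 embryos, Crabp2 above Cyp26a1 in 30, Cyp26a1 above Rarg in 37, and Rarg above Aldh1a2 in 35. Aldh1a2 was above Rara in only 18 of 37 embryos and Rxrg above Dhrs3 in 16, so these neighbours were not separated over all embryos together. The order of Rxrg and Dhrs3 turned with stage. In Smchd1 wt embryos their medians were 7.06 and 5.46 CPM at 6 and 7 somites (n = 8), and 1.01 and 4.18 CPM at 10 and 11 (n = 7). Rarb was lowest, with Dhrs3 above it in 35 of 37 embryos, but its level is uncertain. Of its exon bases, 34.1% are also exon bases of Top2b on the opposite strand, and the counts act as not strand-specific. Rarb counts were 0.67 to 7.86% of Top2b counts (median 1.29%). In every embryo this was below 12.3%, the share of Top2b exon bases that lie in the shared stretch.

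**Figure D1:**
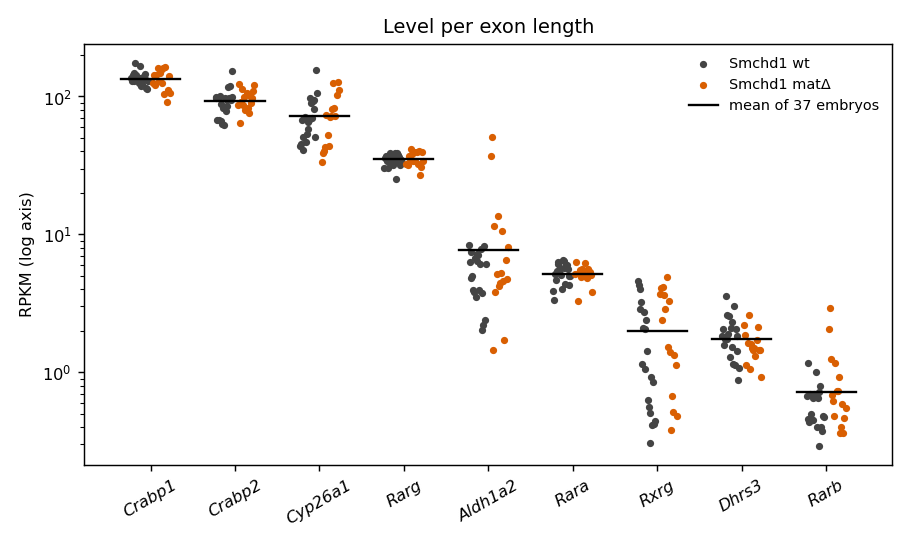
Level of the 9 genes in RPKM (log axis), with a point for each of 37 embryos, coloured by genotype, and a line at the mean of all embryos. Crabp1 lies highest at 135 RPKM and Rarb lowest at 0.724 RPKM, and the 2 Smchd1 matΔ points near the top of the Aldh1a2 column are replicates 1 and 2 at 6 somites.

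Cyp26a1 (chr19:37697798-37701536) rose as somites were added. In Smchd1 wt embryos it measured 87.0, 90.3, 135 and 81.8 CPM at 6 somites, 100, 138, 141 and 93.4 at 7, and 105, 130 and 116 at 8. It measured 134, 193 and 179 CPM at 9 somites, 139, 184, 161 and 186 at 10, and 100, 308 and 210 at 11. At 9 and 10 somites only the lowest value of each stage fell within the range of the 6 and 7 somite embryos, whereas the low value at 11 somites, replicate 1, fell well inside it. The slope was 0.21 per somite on the log2 scale, or 1.15-fold per somite (SE 0.040, adjusted p = 0.00253). Smchd1 matΔ embryos measured 66.1, 77.5, 80.0 and 85.9 CPM at 6 somites, 147, 104 and 86.1 at 7, 141 and 142 at 8, 162 and 248 at 9, 164, 144 and 203 at 10, and 253 and 220 at 11. All 4 embryos with 6 somites lay below all 9 with 8 or more. The Smchd1 matΔ slope was 0.30, or 1.23-fold per somite (SE 0.038, adjusted p = 8.76e-05), and 0.27 without replicates 1 and 2 at 6 somites (adjusted p = 0.00265).

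Rxrg (chr1:167598384-167639623), which encodes RXRγ, fell over the same stages. In Smchd1 wt embryos it measured 10.6, 9.92, 6.64 and 9.18 CPM at 6 somites, 7.49, 2.63, 4.8 and 6.33 at 7, and 4.73, 2.43 and 5.49 at 8. It then measured 3.27, 1.43 and 1.28 CPM at 9 somites, 0.71, 1.16, 2.14 and 0.949 at 10, and 1.97, 0.973 and 1.01 at 11. No Smchd1 wt embryo with 10 or 11 somites reached the lowest embryo with 6, 7 or 8 somites. The slope was -0.61 on the log2 scale, or 0.653-fold per somite (SE 0.067, adjusted p = 1.15e-05). Smchd1 matΔ embryos measured 8.44, 9.37, 5.48 and 9.51 CPM at 6 somites, 8.29, 6.60 and 11.2 at 7, 3.52 and 7.49 at 8, 3.22 and 0.873 at 9, 1.55, 1.19 and 3.08 at 10, and 2.58 and 1.11 at 11. Their slope was -0.55, or 0.682-fold per somite (SE 0.087, adjusted p = 6.66e-04), and again no embryo with 9 or more somites reached an embryo with 6 or 7.

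Aldh1a2 (chr9:71215789-71296243) had no slope past the threshold in Smchd1 wt embryos. It measured 18.9, 14.4, 11.0 and 16.8 CPM at 6 somites, 11.3, 8.88, 8.58 and 15.3 at 7, and 7.95, 16.3 and 14.5 at 8. It measured 16.1, 8.90 and 13.9 CPM at 9 somites, 17.9, 4.62, 8.44 and 5.02 at 10, and 18.6, 5.41 and 13.9 at 11. The ranges of the first and last stages overlapped, although the 3 lowest values, 4.62, 5.02 and 5.41 CPM, all came from embryos with 10 or 11 somites. The slope was -0.075 (SE 0.067, adjusted p = 0.569), and in the 13 females alone it was -0.22 (adjusted p = 0.0354). In Smchd1 matΔ embryos Aldh1a2 measured 83.5, 115, 3.29 and 26 CPM at 6 somites, 8.70, 11.6 and 30.8 at 7, 9.55 and 10.1 at 8, 11.8 and 23.8 at 9, 10.5, 3.91 and 14.8 at 10, and 10.8 and 18.3 at 11. The value of 3.29 CPM came from the shallowest library, where it stood for 3 counts. The slope of -0.45 (SE 0.12, adjusted p = 0.0438) passed the threshold and was -0.11 (adjusted p = 0.665) without replicates 1 and 2 at 6 somites.

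Rarb (chr14:16430839-16819156, minus strand) is a receptor gene switched on by retinoic acid in many tissues. Like Aldh1a2, it was highest in Smchd1 matΔ replicates 1 and 2 at 6 somites. The correlation of Aldh1a2 with Rarb was 0.56 over all embryos and 0.15 without these replicates. In Smchd1 wt embryos Rarb ranged from 2.29 to 6.13 CPM at 6 and 7 somites (median 3.02, n = 8) and from 1.54 to 4.16 at 10 and 11 somites (median 2.48, n = 7). Its slope was -0.082 (SE 0.063, adjusted p = 0.496). In Smchd1 matΔ embryos it measured 10.8, 15.5, 6.58 and 3.59 CPM at 6 somites. The value of 6.58 CPM stood for 6 counts in the shallowest library. At 6 and 7 somites together Rarb ranged from 2.55 to 15.5 CPM (median 6.20, n = 7). At 10 and 11 somites it ranged from 1.92 to 3.11 CPM (median 2.43, n = 5). These ranges overlap, although no embryo with 10 or 11 somites reached one with 6. The slope was -0.37 (SE 0.084, adjusted p = 0.0131), and -0.18 (adjusted p = 0.246) without replicates 1 and 2 at 6 somites. How many reads of the exon bases shared with Top2b entered these values was not tested.

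Of the 9 members, 1 rose and 1 fell in Smchd1 wt embryos, and 1 rose and 3 fell in Smchd1 matΔ embryos. Over all genes tested, 3.06% rose and 2.71% fell in Smchd1 wt embryos (5.76% of 14857 in either direction), and 2.48% rose and 1.71% fell in Smchd1 matΔ embryos (4.19% of 15255). Without replicates 1 and 2 at 6 somites, the Smchd1 matΔ count was 2, Cyp26a1 and Rxrg. Sex followed stage in part, since the Smchd1 matΔ embryos at 6, 8 and 9 somites held no male, and with sex added to the fit the count was likewise 2, with Aldh1a2 at an adjusted p of 0.151 and Rarb at 0.0609. Leaving out 1 Smchd1 matΔ embryo at a time ended the Aldh1a2 call in 9 of 16 cases, and DESeq2 called 3 members, with Aldh1a2 at an adjusted p of 0.0804.

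**Figure D2:**
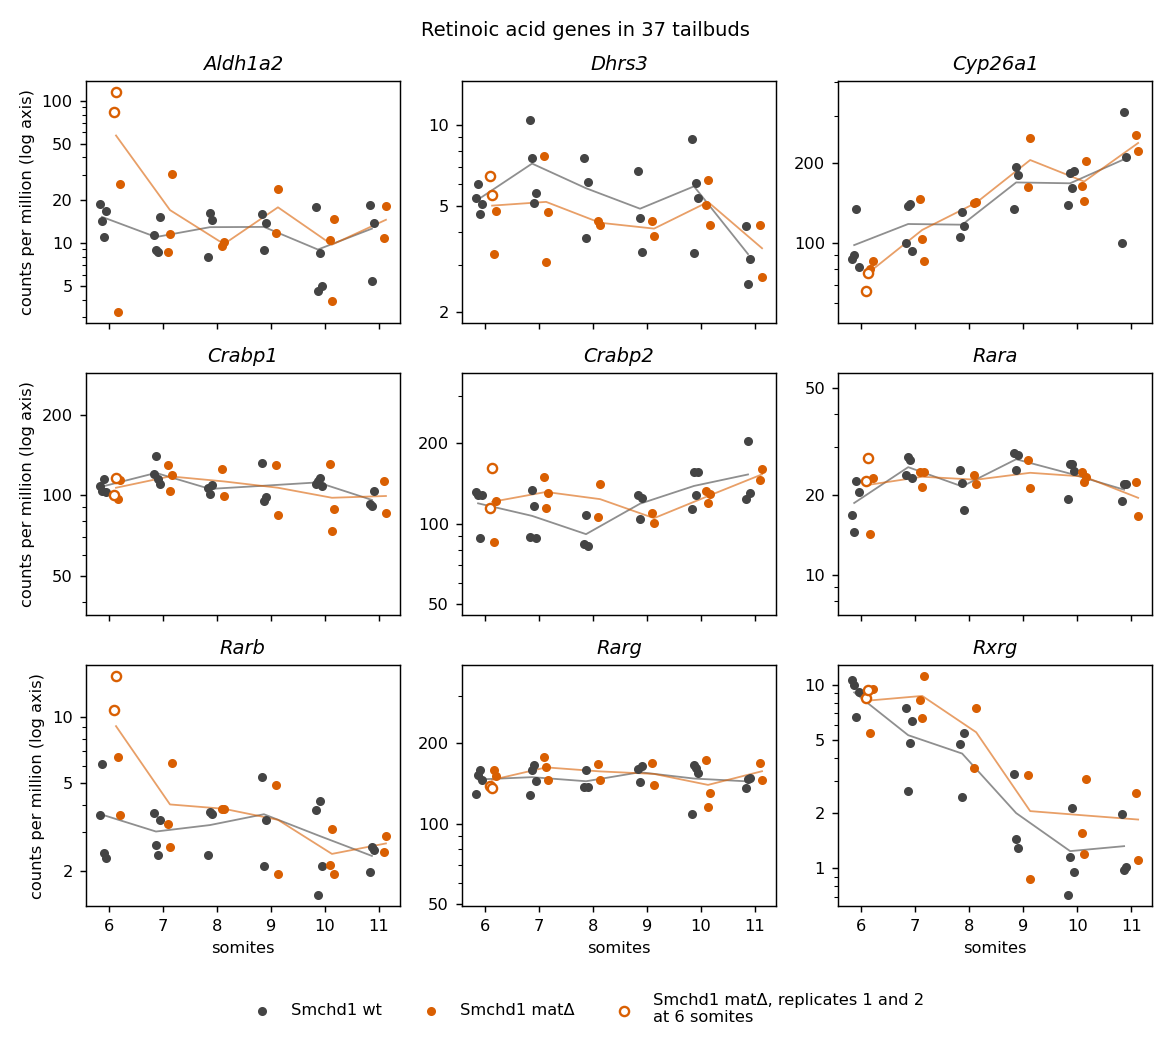
Each panel plots a gene in CPM (log axis) against somite number, with a point for each embryo and a line through the stage means of each genotype. Open circles are Smchd1 matΔ replicates 1 and 2 at 6 somites, at 83.5 and 115 CPM for Aldh1a2. Cyp26a1 rises and Rxrg falls in both genotypes.

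The other 5 members had no slope past the threshold in either genotype. Crabp2 had the only rising slope over 0.05 among them in Smchd1 wt embryos, 0.086 (SE 0.033, adjusted p = 0.135), with a median of 123 CPM at 6 and 7 somites (n = 8) and of 131 at 10 and 11 (n = 7). Crabp1 (91.1 to 140 CPM in Smchd1 wt, 73.3 to 131 in Smchd1 matΔ) had slopes of -0.029 and -0.041 in the 2 genotypes. Dhrs3, the reductase that returns retinal to retinol, ranged from 2.55 to 10.5 CPM in Smchd1 wt and from 2.70 to 7.68 in Smchd1 matΔ embryos, with slopes of -0.10 and -0.074.

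Rarg and Rara varied less than the other 2 receptors among the 9 members. Rarg stayed within 108 to 166 CPM in Smchd1 wt embryos (median 148) and 115 to 177 in Smchd1 matΔ embryos (median 148), and its slopes were -0.001 (SE 0.019) and -0.005 (SE 0.023). Rara ranged from 14.5 to 28.5 CPM (median 23.2) and from 14.2 to 27.3 (median 22.7), with slopes of 0.031 (SE 0.032) and -0.024 (SE 0.030). The partners Rxra and Rxrb, at 42.2 ± 5.10 and 47.3 ± 5.60 CPM (SD, n = 21 Smchd1 wt embryos), had Smchd1 wt slopes of 0.0039 (SE 0.023) and 0.020 (SE 0.022), neither past the threshold. Thus of the 3 retinoid X receptor genes the fall was seen in Rxrg, which had the lowest level of the 3. Per exon length, Rxra was at 7.73 and Rxrb at 11.9 RPKM in Smchd1 wt embryos.

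**Figure D3:**
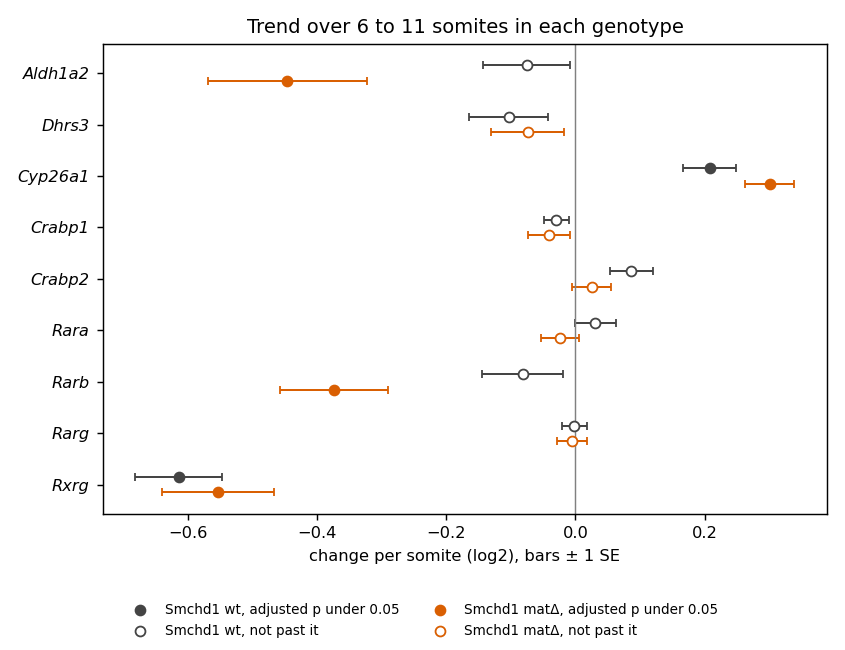
Change per somite on the log2 scale for the 9 genes in Smchd1 wt (n = 21) and Smchd1 matΔ (n = 16) embryos, with bars of 1 SE. Filled points passed an adjusted p of 0.05. Cyp26a1 and Rxrg are filled in both genotypes, Aldh1a2 and Rarb in Smchd1 matΔ alone, and the difference in slope did not pass the threshold for any gene.

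Whether the trends differed between genotypes was tested directly. No member, and none of the 15978 genes tested, passed the threshold with edgeR (0%), and DESeq2 called 28 genes and no member. At an unadjusted p under 0.05 there were 2 members, against 3.92% of all genes: Rarb, with a slope difference of -0.28 (SE 0.11), and Aldh1a2, with -0.36 (SE 0.14), both at an adjusted p of 0.9998 with edgeR. Both moved toward 0 without replicates 1 and 2 at 6 somites, to -0.098 for Rarb and -0.037 for Aldh1a2. The differences were 0.11 (SE 0.060) for Cyp26a1 and 0.058 (SE 0.11) for Rxrg, each smaller than the slopes themselves.

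At matched somite number, no member differed between Smchd1 matΔ and Smchd1 wt embryos past the threshold, in all stages, at 6 to 8 or 9 to 11 somites, or at any single stage. The shares of all genes called were 0.0125%, 0.00639% and 0.00635% in the first 3 of these comparisons and 0% at each single stage, and DESeq2 called no member in any of them. The largest estimates were those of Aldh1a2. Over all stages it was 0.64 higher in Smchd1 matΔ embryos on the log2 scale (SE 0.28, adjusted p = 0.867), at 6 to 8 somites 0.93 higher (SE 0.40, adjusted p = 0.589) and at 6 somites 2.04 higher (SE 0.51, adjusted p = 0.862). With no filter on low counts the 6 somite value was 2.02 and passed, with an adjusted p of 0.033. Without replicates 1 and 2 at 6 somites these log2 differences were 0.24, 0.087 and 0.29. The direction was not shared by all stages of the 6 to 8 somite window. Mean Aldh1a2 in Smchd1 matΔ and Smchd1 wt embryos was 17.0 (n = 3) and 11.0 CPM (n = 4) at 7 somites, but 9.83 (n = 2) and 12.9 CPM (n = 3) at 8.

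At an unadjusted p under 0.05, the edgeR fits held 1 member over all stages (Aldh1a2; 5.67% of all genes), 3 at 6 to 8 somites (Aldh1a2, Rarb and Crabp2; 7.77%) and 0 at 9 to 11 somites (1.88%). There were 2 members at 6 somites (Aldh1a2 and Rarb; 5.54%), 1 at 7 somites (Rxrg; 4.83%), 1 at 8 somites (Crabp2; 2.81%), and 0 at 9 (1.15%), 10 (0.56%) and 11 somites (8.66%). Without replicates 1 and 2 of Smchd1 matΔ at 6 somites there were 0 members at 6 somites (2.44% of all genes) and 0 at 6 to 8 somites (7.68%). Rarb was 1.41 higher at 6 somites (SE 0.48, adjusted p = 0.862) and 0.33 higher without the 2 libraries. Cyp26a1 went the other way at 6 somites, at -0.33 (SE 0.16, adjusted p = 0.862), where 3 of the 4 Smchd1 matΔ values lay below the lowest Smchd1 wt value of 81.8 CPM. Without the 2 libraries this Cyp26a1 difference was -0.23 (SE 0.20). For Cyp26a1 over all stages the difference was 0.02 (SE 0.10), and for Rarg 0.04 (SE 0.05). The median over the 9 members was 0.036, beside -0.0023 over all genes.

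In each embryo the balance of synthesis to clearance was taken as the log2 ratio of Aldh1a2 to Cyp26a1 counts, so that 0 is equal counts and lower values are more Cyp26a1. In 35 of 37 embryos Cyp26a1 had more counts, and the 2 exceptions, at 0.34 and 0.57, were Smchd1 matΔ replicates 1 and 2 at 6 somites. Smchd1 wt embryos stood at -2.20, -2.65, -3.62 and -2.28 with 6 somites, -3.14, -3.93, -4.03 and -2.61 with 7, and -3.72, -3.00 and -3.00 with 8. They stood at -3.06, -4.43 and -3.69 with 9 somites, -2.95, -5.30, -4.25 and -5.21 with 10, and -2.43, -5.83 and -3.91 with 11. The balance thus moved toward Cyp26a1, from a median of 5.58 Cyp26a1 counts per Aldh1a2 count at 6 somites to 28.1 at 10 and 15.1 at 11, and it also spread out.

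The Smchd1 wt slope of the balance was -0.31 per somite (SE 0.11, permutation p = 0.0124, adjusted over 5 comparisons 0.0311), with Pearson's r of -0.54 and Spearman's rho of -0.49 (permutation p = 0.0272). Leaving out the 2 embryos farthest from the median somite number gave r between -0.72 and -0.44, depending on which embryos were removed. In females alone the Smchd1 wt slope was -0.51 (permutation p = 5.7e-04). In Smchd1 matΔ embryos the other values at 6 somites were -4.39 and -1.72. The first came from the shallowest library, with 3 Aldh1a2 and 73 Cyp26a1 counts. Smchd1 matΔ embryos with 10 or 11 somites ran from -5.19 to -3.59. The Smchd1 matΔ slope was -0.57 (SE 0.19, permutation p = 0.0073, adjusted 0.0311), with r of -0.63, rho of -0.51 (permutation p = 0.0463) and r of -0.64 without the farthest embryos. Without replicates 1 and 2 at 6 somites it was -0.28 (permutation p = 0.0726), and without the shallowest library -0.70 (permutation p = 5.1e-04).

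Between genotypes the balance did not differ past the threshold. The difference, Smchd1 matΔ minus Smchd1 wt, was 0.37 over all stages (permutation p = 0.335), 0.60 at 6 to 8 somites (exact permutation p = 0.309) and 0.091 at 9 to 11 somites (exact permutation p = 0.849), all two-sided, with adjusted values of 0.418, 0.418 and 0.849. Without the 2 libraries the first difference was 0.0056 and the second -0.077. In females alone the differences were larger, 0.89 over all stages (exact permutation p = 0.0826), 0.87 at 6 to 8 somites (exact permutation p = 0.305) and 0.91 at 9 to 11 somites (exact permutation p = 0.0972), and none passed the threshold. The mean balance at 9 to 11 somites was -4.03 ± 0.63 (SD) in 7 Smchd1 matΔ and -4.11 ± 1.11 (SD) in 10 Smchd1 wt embryos.

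**Figure D4:**
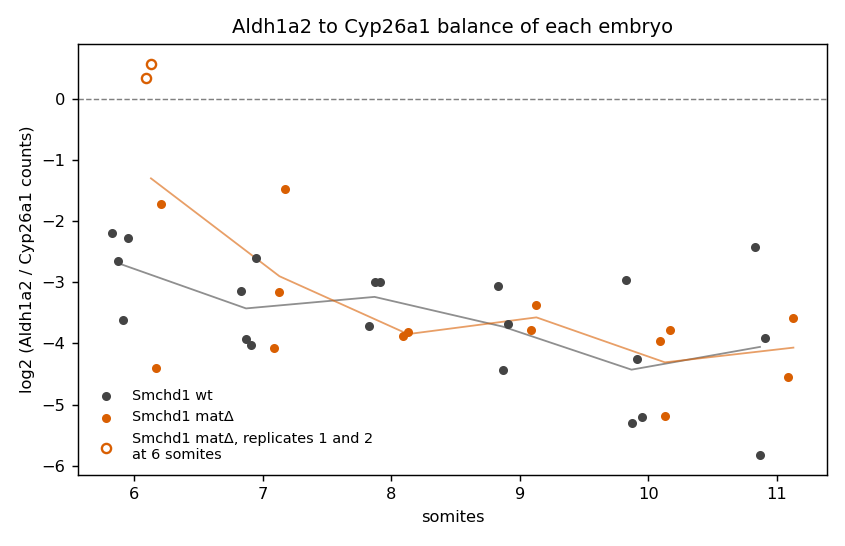
Log2 ratio of Aldh1a2 to Cyp26a1 counts in each of 37 embryos against somite number, with lines through the stage means. Only the open circles, Smchd1 matΔ replicates 1 and 2 at 6 somites, lie above the dashed line of equal counts, and in both genotypes the ratio is lower at 10 and 11 than at 6 somites on average.

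Replicates 1 and 2 of Smchd1 matΔ at 6 somites, taken with the other 35 embryos, had the 2 highest values of Aldh1a2 (others 3.29 to 30.8 CPM) and of Rarb (others 1.54 to 6.58 CPM), and the 2 lowest of Cyp26a1 (others 80.0 to 308 CPM). Their levels of the other 6 members lay within the range of the other embryos. Of the 10 markers listed for somites and anterior presomitic mesoderm, 5 were higher in both than in any of the other 35 embryos: Meox1, Foxc2, Mesp2, Uncx and Tbx18. Meox1 was at 12.7 and 38.6 CPM, with 11.1 CPM as the highest value elsewhere, and Foxc2 at 17.0 and 19.96 CPM, with 13.6 elsewhere. The levels of the other 3 were low. Mesp2 was at 1.05 and 0.94 CPM (0.87 elsewhere), Uncx at 0.30 and 1.01 (0.073 elsewhere), and Tbx18 at 1.05 and 3.10 (0.53 elsewhere). Pax3, Tcf15, Meox2 and Ripply2 did not set both embryos apart. Pax3 was at 12.7 and 10.8 CPM, with up to 14.7 elsewhere, and Meox2 and Ripply2 were each at 0 in 1 of the pair. Pax1 was at 0 in all 37 embryos. The summed level of the 10 markers was 45.5 and 84.8 CPM in the pair, 17.5 and 24.9 in the other 2 Smchd1 matΔ embryos with 6 somites, 13.1 to 19.9 in the 4 Smchd1 wt embryos with 6 somites, and at most 40.2 in any other embryo. The sum of the tailbud markers, 1183 and 944 CPM, lay within the range of the others. The sums of the lists for other tissues did not set both embryos apart, but replicate 1 had the highest sum of 6 lateral and intermediate mesoderm markers, 396 CPM (replicate 2 at 186, others 141 to 315), and a sum of 7 neural tube markers of 98.2 CPM that 1 of the other 35 embryos exceeded (replicate 2 at 65.9, others 36.7 to 105). The part of somite tissue, or of these other tissues, in the Aldh1a2 and Rarb values was not tested.

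**Figure D5:**
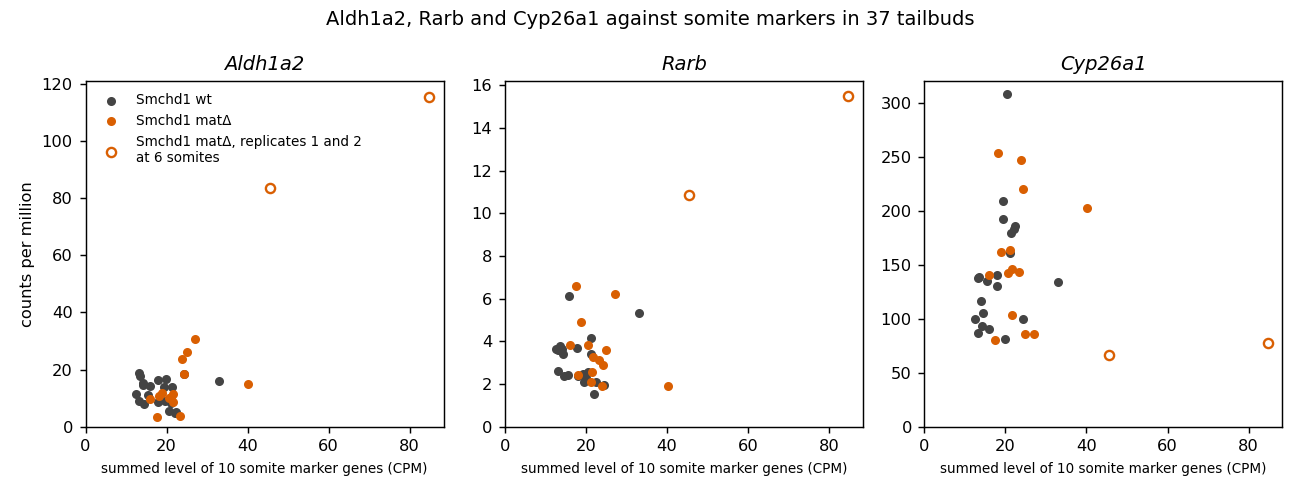
Aldh1a2, Rarb and Cyp26a1 in CPM against the summed level of 10 markers of somites and anterior presomitic mesoderm, with a point for each of 37 embryos. The 2 open circles, at sums of 45.5 and 84.8 CPM, lie above all other points for Aldh1a2 and Rarb and below all others for Cyp26a1.

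Cell type markers also moved with somite number, beside the trends above. The summed level of 7 primitive erythroid markers had a median of 109 CPM at 6 and 7 somites (10.1 to 3079) and of 1044 CPM at 10 and 11 somites (113 to 4205). The sum of 8 visceral and gut endoderm markers went from a median of 1082 CPM (400 to 2672) to 188 CPM (21.7 to 2859). The tailbud sum held a median of 1132 CPM at 6 and 7 somites (944 to 1270) and of 1081 CPM at 10 and 11 somites (520 to 1418). The part of blood and endoderm cells in the slopes of Cyp26a1 and Rxrg was not tested. Leaving out Smchd1 wt replicate 1 at 10 somites, or any other Smchd1 wt embryo, kept the count of called members at 2, with Cyp26a1 slopes of 0.17 to 0.24 and Rxrg slopes of -0.68 to -0.60.

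The other genes of the pathway were taken from lists. Of 14 listed genes for the supply and transport of retinoids, 10 passed the filter on low counts in Smchd1 wt embryos, with 1 rising and 1 falling. In Smchd1 matΔ embryos 10 were tested, with 0 rising and 1 falling. Over all genes, 5.76% and 4.19% were called in the 2 genotypes. Without Smchd1 matΔ replicates 1 and 2 at 6 somites, the Smchd1 matΔ fit called 0 of these genes. The rising gene in Smchd1 wt embryos was Rdh11, a retinal reductase, at 0.089 per somite (SE 0.021, adjusted p = 0.0133). Rdh10, the main retinol dehydrogenase of the embryo, was at 20.8 ± 5.82 CPM in Smchd1 wt (SD, n = 21) and 21.2 ± 4.45 CPM in Smchd1 matΔ embryos (SD, n = 16). The other retinal dehydrogenases were scarce, with means of 0.492 CPM for Aldh1a1 and 0.454 CPM for Aldh1a3 in Smchd1 wt embryos, and Lrat, which stores retinol as esters, was at 0 in 14 of 21 Smchd1 wt and 13 of 16 Smchd1 matΔ embryos. Cyp26b1 and Cyp26c1, the other clearing enzymes, were at 1.17 ± 0.51 and 1.09 ± 0.64 CPM in Smchd1 wt embryos, with no call in any fit. Cyp26a1 was thus the clearing enzyme with by far the highest level. Of 10 receptor partners and cofactors, 10 were tested and 0 were called in either slope fit.

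Among 18 genes listed as responsive to retinoic acid, 14 were tested in Smchd1 wt embryos, with 1 rising and 2 falling. In Smchd1 matΔ embryos 15 were tested, with 0 rising and 4 falling. Over all genes, 3.06% rose and 2.71% fell in Smchd1 wt embryos, and 2.48% rose and 1.71% fell in Smchd1 matΔ embryos. Cdx1, a regulator of Hox genes, fell in both, at -0.34 (SE 0.041, adjusted p = 2.62e-05) and -0.47 (SE 0.056, adjusted p = 4.91e-05). Nr2f2, an orphan nuclear receptor, rose in Smchd1 wt embryos at 0.24 (SE 0.049, adjusted p = 0.00439). In Smchd1 matΔ embryos Tshz1 fell at -0.11 (adjusted p = 0.011) and Nkx6-1 at -0.76 (adjusted p = 0.00515). Nkx6-1 measured 8.14 and 4.76 CPM in replicates 1 and 2 at 6 somites and at most 2.33 CPM elsewhere. Without these 2 embryos Nkx6-1 (-0.55, adjusted p = 0.072) and Tshz1 (-0.093, adjusted p = 0.0827) lost their calls, Cdx1 was at -0.45 (adjusted p = 7.75e-04), Nr2f2 passed at 0.23 (adjusted p = 0.0428), and the list had 1 rising and 2 falling genes. The median slope of the tested genes was -0.052 in Smchd1 wt and -0.10 in Smchd1 matΔ embryos, beside -0.00087 and 0.0014 over all genes. Stra8 was at 0 in 21 of 21 Smchd1 wt and 15 of 16 Smchd1 matΔ embryos, and Olig2 in 17 and 13.

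Of 8 genes listed as opposed by retinoic acid, all were tested. In Smchd1 wt embryos 0 rose and 2 fell, beside 3.06% and 2.71% of all genes. In Smchd1 matΔ embryos 1 rose and 2 fell, beside 2.48% and 1.71% of all genes. Wnt8a fell in Smchd1 wt (-0.33, SE 0.063, adjusted p = 0.0021) and Smchd1 matΔ embryos (-0.47, SE 0.080, adjusted p = 0.00132), as did Nkx1-2, a marker of the progenitor zone, at -0.11 (adjusted p = 0.048) and -0.15 (adjusted p = 0.0142). Fgf17 rose in Smchd1 matΔ embryos at 0.14 (SE 0.030, adjusted p = 0.00894). Without Smchd1 matΔ replicates 1 and 2 at 6 somites, Wnt8a was at -0.41 (adjusted p = 0.0167), and Fgf17 (0.11, adjusted p = 0.0728) and Nkx1-2 (-0.15, adjusted p = 0.0692) lost their calls. Fgf8, the main signal opposed by retinoic acid in the tailbud, had slopes of 0.018 (SE 0.050) and 0.041 (SE 0.038), neither past the threshold. It was at 34.4 ± 9.60 CPM in Smchd1 wt (SD, n = 21) and 42.6 ± 8.52 CPM in Smchd1 matΔ embryos (SD, n = 16), and its genotype difference over all stages, 0.32 (SE 0.12), had an unadjusted p of 0.00854 and an adjusted p of 0.867. In all genotype comparisons, 0 genes of these lists were called. Of the 8 opposed genes, 8 had higher estimates in Smchd1 matΔ embryos over all stages, 8 at 8 somites and 4 at 6 somites. Over all stages their median log2 difference was 0.17, beside -0.0023 over all genes, and 0.18 without Smchd1 matΔ replicates 1 and 2 at 6 somites. At an unadjusted p under 0.05 with edgeR there were 2 over all stages (5.67% of all genes) and 5 at 8 somites (2.81%).

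As a description of which genes varied most alike over the 37 embryos, log2 CPM values were correlated with those of 15977 other genes. The points share stage, genotype and depth. Cyp26a1 was closest to Hoxa9 (r = 0.91), Hoxc6 (0.90), Hoxa7 (0.88), Hoxc8 (0.87) and Adamtsl2 (0.87), that is, mostly Hox genes. Rxrg was closest to Cdx1 (0.92), Olfml2a (0.92), Epha1 (0.90), Nr6a1 (0.89) and Cyfip2 (0.86). Cyp26a1 and Rxrg ran against each other, with r = -0.78 over 37 embryos and -0.76 without replicates 1 and 2 of Smchd1 matΔ at 6 somites. Aldh1a2 had weaker neighbours, Magee1 (0.73), Csn3 (0.72), Nr2f1 (0.70), Ttc9 (0.70) and Gfpt2 (0.69), which dropped to between 0.38 and 0.63 without those 2 embryos. The correlation of Aldh1a2 with Rarb dropped from 0.56 to 0.15, and that with Cyp26a1 moved from -0.43 to -0.23.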

How the data were processed

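RNA-seq libraries of 37 tailbuds, a library per embryo, were analysed from the raw counts per gene that the authors deposited, which are whole numbers and not normalised. By the labels' protocols and the study's methods, poly(A) libraries were made with a stranded or an unstranded TruSeq kit, reads were trimmed with Trim Galore 0.4.4, mapped to GRCm38.p6 with HISAT2 2.0.5 and quantified in SeqMonk. The kit of each library was not given in the sources used here. The authors' log2 RPKM values of Hox genes, and their table of fold changes and p-values of called genes, were not used. Of 35591 rows, 49 with a repeated identifier were dropped, and 26 gene names turned into dates were restored. On 189 genes whose exons were covered, to a share of at least 0.5, by exons of an opposite-strand gene above 30000 counts, found over predicted counts had a median of 0.927 to 1.07 per embryo, so the counts act as not strand-specific. No pair of libraries of a group agreed within sampling noise (chi-square per degree of freedom 5.12 to 72.3 over 42 pairs).

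Genes were tested with the quasi-likelihood test of edgeR 4.0.16 (R 4.3.3) on the counts, with TMM normalisation and genes filtered by filterByExpr (minimum count 10), two-sided, with Benjamini-Hochberg adjustment over all genes tested and a threshold of 0.05. Genotype fits over several stages included sex and somite number, the latter as a factor, single stages genotype alone, and slopes somite number alone. The slope difference had genotype, sex, somite number and their interaction. CPM and RPKM were computed here with TMM library sizes, RPKM with the summed exon length of GENCODE M21, and a prior count of 2 was used for log2 CPM. The balance used a prior of 0.5 counts, and was tested by permuting genotype within somite number, or somite numbers within a genotype, exactly for the windows and with 100000 resamples otherwise. The scripts were tested on simulated data. Alternatives were DESeq2 1.42.0 and its size factors, no filter, females alone, sex in or out, a replicate block, and leaving out embryos. Total counts, in units of 1e6, were 0.916 to 80.6 per embryo. Counts carry no molecular identifiers, so low counts limit precision beyond counting error. The labels name no batch, and all embryos with 6 somites were female.

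The 9 members and the gene lists were chosen with earlier results of these data known. All members are named. List genes are named where they passed the threshold in a fit (at most 6 per list and fit) or were at 0 in most libraries, apart from some that are not reported here, with Fgf8, Rxra and Rxrb always given, as are the 5 genes most alike by Pearson's r for Aldh1a2, Cyp26a1 and Rxrg. Rdh10, Aldh1a1, Aldh1a3, Cyp26b1 and Cyp26c1 were named after their values were seen.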

Additional observations from a re-analysis of the deposited data

Results flagged for a closer look

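In groups of 4 embryos, an embryo was singled out where its gap to the nearest other, as a share of the range of the group, exceeded Dixon's critical value. Over 40 such groups, 9 genes and the balance in 4 groups each, this held for 2, where chance gives about 1 in 20. Both were Smchd1 wt replicate 3 at 6 somites, in which Cyp26a1 was high at 135 CPM (others 81.8 to 90.3) and Crabp2 low at 88.6 CPM (others 128 to 131). Without this embryo, the count of called members in the Smchd1 wt slope fit was 2, as with it.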

How the results depend on the processing

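Of 383 recomputed counts of called members and balance values, 375 kept their direction and their side of the threshold, or stayed within 1.5 times. The count of 4 members called in the Smchd1 matΔ slope fit was 2 in females alone, with sex added and without the 2 ribosomal RNA-rich libraries, 3 with DESeq2, which did not call Aldh1a2, and 2 to 4 with 1 embryo left out, the 2 being without replicate 2 at 6 somites. The 6 somite genotype count was 1 with no filter on low counts. The balance slope in Smchd1 matΔ embryos was -0.59 in females alone (permutation p = 0.0536) and -0.28 without the 2 libraries, and the balance difference at 6 to 8 somites turned to -0.077 without them. Of 2268 recomputed values of single members, 2245 kept direction and side, 17 lost and 2 gained a call, and 4 turned sign, where a main value within 1 SE of 0 was taken to have no direction: at 7 somites without Smchd1 matΔ replicate 3, Aldh1a2 was at -0.14 and Rarb at -0.060, and at 9 somites without Smchd1 matΔ replicate 2, Aldh1a2 was at -0.16 and Cyp26a1 at -0.064. Over all genes, the calls ranged over the alternatives from 593 to 1943 for the Smchd1 wt slope (main 856), 175 to 1484 for the Smchd1 matΔ slope (main 639), 0 to 39 for the slope difference (main 0), 1 to 4 over all stages (main 2), 0 to 39 at 6 to 8 (main 1) and 0 to 42 at 9 to 11 somites (main 1), and 0 to 186 at single stages (main 0). The cause was not tested.

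Most same-numbered embryos were not alike: of 16 such pairs, 4 had deviations from the group means correlated above 0.1 (-0.29 to 0.58, median 0.011). These 4 were 0.58 and 0.34 at 9 somites, 0.30 at 10 and 0.13 at 8. In a group of 2 embryos the deviations mirror each other, so this check cannot exclude pairing at single stages. With the replicate number as a block, 0 members were called in each of the 9 genotype fits, and the balance difference was 0.44 over all stages (permutation p = 0.274), 0.77 at 6 to 8 (exact permutation p = 0.211) and 0.0062 at 9 to 11 somites (exact permutation p = 1). No block was possible for the slopes, which compare stages within a genotype. The shallow libraries limit the genes with few counts, Rarb, Rxrg and Dhrs3 above all.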
